A study of Mus musculus with 9 samples.

Results

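Gene expression in the mouse nucleus accumbens was compared between a library from mice withdrawn from repeated cocaine and a library from mice given saline. The genes compared were those with a mean of at least 1 RPKM (reads per kilobase of gene model, scaled to the library total) over the 9 sequencing lanes of the study, which were 14051 of the 21423 genes in the authors' table. The other 7372 genes lay below this limit. The genes nearest to it were Ankrd34c, left out at 0.9998 RPKM, and 4930405A21Rik, kept at 1.0006 RPKM.

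All mice were adult C57BL/6 males of 2 to 5 months that received 1 intraperitoneal injection a day for 7 days. The saline group received 10 ml/kg saline and was harvested 24 h after the last injection. The withdrawal group received cocaine and then stayed in the home cage for 8 days before harvest. A cocaine group, harvested 24 h after the last injection, is shown beside them. Cocaine was given at 10 or 20 mg/kg, and which dose a given sample received is not in the labels. Equal amounts of RNA from 8 mice were pooled in each group, and the 1 library of each pool was sequenced in 3 lanes. There was no saline group at 8 days, so cocaine withdrawal and the longer time since the last injection cannot be told apart. With 1 library per group, no difference had a check across animals and no p-value was computed. Errors are spreads over the 3 lanes of a library and cover sequencing only.

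The nucleus accumbens is the ventral part of the striatum. Most of its neurons are medium spiny neurons, GABAergic projection neurons that express either the D1 or the D2 dopamine receptor and that are known by their peptides: dynorphin and substance P with D1, enkephalin with D2. They receive glutamate from cortex, amygdala, thalamus and hippocampus and dopamine from the midbrain, and cocaine raises extracellular dopamine by blocking its transporter. The tissue label fitted its defining transcripts: Ppp1r1b, the dopamine-regulated phosphatase inhibitor DARPP-32, was at 655 ± 16 RPKM in the saline library and 498 ± 10.2 RPKM in the withdrawal library (mean ± SD of 3 lanes), and Penk, the enkephalin precursor, at 1018 ± 38.8 and 839.7 ± 7.73 RPKM.

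The saline library stood apart from the other libraries. Correlations of log2 values between lanes of 1 library were 0.976 to 0.985, those between saline and withdrawal lanes 0.962 to 0.968, and those between cocaine and withdrawal lanes 0.974 to 0.980. The median absolute difference between libraries was 0.23 on the log2 scale for saline and withdrawal, 0.20 for saline and cocaine, and 0.11 for cocaine and withdrawal. Library totals were 26006605 for saline and 19452882 for withdrawal. The RPKM of all genes summed to 406470 in saline, 362941 in cocaine and 361065 in withdrawal. Summed levels of gene groups below are to be read beside these sums. In a lane, 1 read in a gene of 2 kb was worth 0.0416 to 0.0901 RPKM. Since the saline library enters every difference below, levels in the cocaine library are given beside the leading results.

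Differences are withdrawal minus saline on the log2(RPKM + 0.5) scale, which understates the change of low genes, ± the standard error from the lanes. A gene was called higher or lower when the means of the lanes differed by at least 1.5 times and no withdrawal lane overlapped a saline lane. By this rule 557 genes were higher (3.96% of those compared) and 473 were lower (3.37%), and 13021 had no call. Counts of the gene groups below are to be read beside these shares. Of the 1030 calls, 909 had at least 1 RPKM in both libraries; 76 were below it in saline and 45 in withdrawal. A gene of the latter kinds was compared only because it was higher in another library, and could hardly be called except in that direction. Of the named calls this holds for 4932418E24Rik, Oprm1, Galr1, Kcng3, Klf4, Sema3g, Hspg2, Htr4 and Pcdhb2, all below 1 RPKM in saline, and for Pmch, Prok2 and Fezf2, below it in withdrawal. Among the 13601 genes with at least 1 RPKM in both libraries 481 were higher (3.54%) and 428 lower (3.15%). Most genes moved little: 66.2% differed by less than 25%, and the middle 90% of differences ran from -0.57 to 0.58. Lanes did not overlap for 6212 genes (44.2%), far more than the 1030 that also passed the size limit. The 10 most abundant genes had no call. They included Eef1a1, a translation elongation factor (-0.27 ± 0.039), Apoe, the main lipid carrier of astrocytes (-0.31 ± 0.054), the imprinted non-coding RNA Meg3 (0.03 ± 0.016) and the ribosomal protein gene Rpl41 (-0.52 ± 0.048). The split of calls depended on the scaling. Setting the median difference of all genes from -0.056 to 0 gave 729 higher and 309 lower calls, scaling lanes to the same 75th percentile, a shift of 0.068, gave 765 and 280, and centring by GC content gave 741 and 297. Differences below are on the authors' scaling unless said otherwise.

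**Figure D1:**
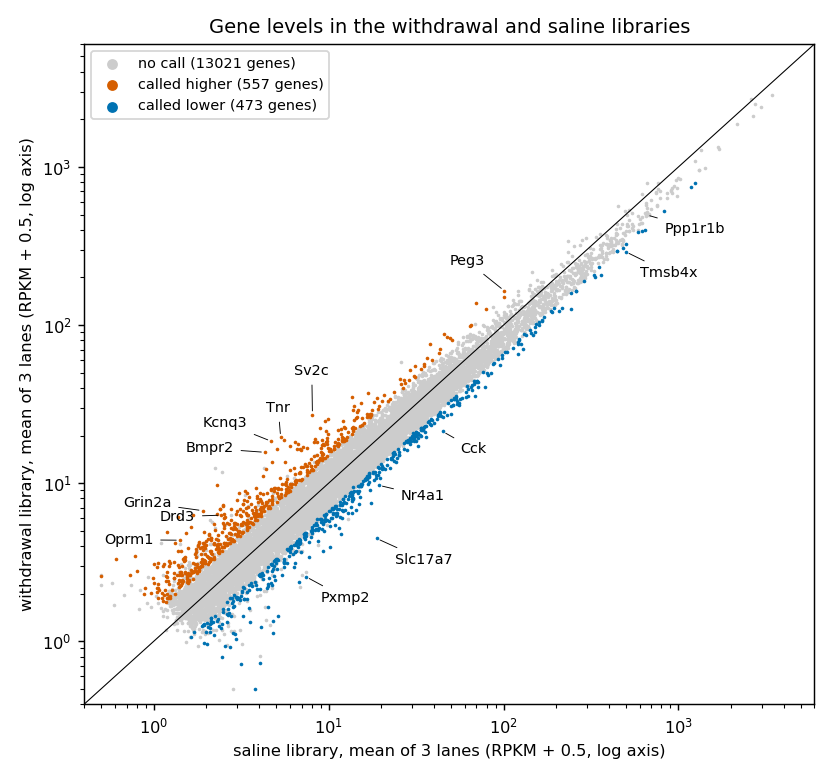
Mean level of each compared gene over the 3 lanes of the saline library (horizontal, RPKM + 0.5, log axis) and of the withdrawal library (vertical, same scale). Each point is 1 gene, with the 557 genes called higher in orange, the 473 called lower in blue and genes without a call in grey. Most points lie close to the line of equal levels; genes far above it include Kcnq3, Tnr and Bmpr2, and the one farthest below it among the labelled genes is Slc17a7.

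Long genes tended to be higher and short genes lower. The median model length was 4572 bp for higher calls, 1519 bp for lower calls, and 3531 bp for all compared genes. Across genes, Spearman's correlation of the difference was 0.42 with length, 0.071 with GC content and -0.21 with level; genes of a library are not independent. When the genes were split by length into 10 classes of equal size, the median difference in the shortest class was -0.27, with 83 genes higher and 164 lower, and in the longest it was 0.24, with 162 higher and 1 lower. Withdrawal minus cocaine had medians between -0.022 and -0.0016 in every class, and cocaine minus saline had -0.28 in the shortest and 0.25 in the longest. Centring the differences within 20 bins of length left 595 higher and 175 lower calls. How much of any gene's difference goes with length was not tested; counts after this centring are given below for the gene groups in which they differ.

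**Figure D2:**
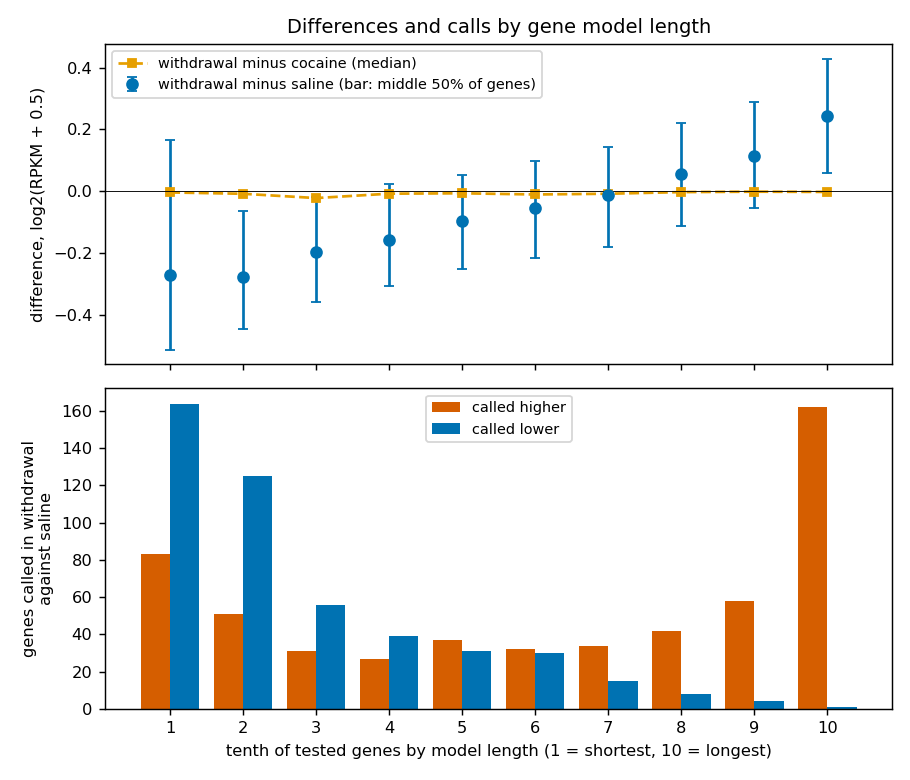
Upper panel: median difference of log2(RPKM + 0.5) in each of 10 equal classes of genes by model length, for withdrawal minus saline (circles, bars span the middle 50% of genes) and withdrawal minus cocaine (squares). The circles lie at -0.27 in the shortest class and 0.24 in the longest, while the squares stay between -0.022 and -0.0016. Lower panel: genes called higher and lower against saline in each class, from 83 and 164 in the shortest to 162 and 1 in the longest.

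Of the 12 largest higher calls at a mean of at least 3 RPKM, the first in size were 2 little-described models, 4932418E24Rik (2.20 ± 0.24) and 4930500M09Rik (2.04 ± 0.22). The next, Kcnq3, a subunit of the M-type potassium channel that damps repetitive firing, was at 4.74, 3.58 and 4.24 RPKM in the saline lanes and at 19.3, 18.9 and 15.6 RPKM in the withdrawal lanes, a difference of 1.98 ± 0.14. The lowest withdrawal lane was above 3 times the highest saline lane, and the cocaine library was at 14.2 ± 1.62 RPKM. Igsf9b, an adhesion molecule of inhibitory synapses, rose from 1.13, 1.22 and 1.2 to 5.78, 5.86 and 5.75 RPKM (1.90 ± 0.027; cocaine 4.14 ± 0.521 RPKM). Tnr, tenascin-R, a component of perineuronal nets, rose from 5.14, 5.12 and 4.18 to 18.6, 18.8 and 19.6 RPKM (1.88 ± 0.092; cocaine 17.1 ± 0.571 RPKM). In these genes the lanes of a library lay close together and the cocaine library was nearer to withdrawal than to saline.

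Bmpr2, the type II receptor for bone morphogenetic proteins, rose from 4.1, 3.3 and 4.06 to 14.3, 15.4 and 15.8 RPKM (1.86 ± 0.099; cocaine 14.6 ± 0.447 RPKM). It was the 1 called member of 34 compared genes of BMP, activin and TGF-beta signalling (2 were higher after centring by length). Grin2a, the GluN2A subunit of NMDA-type glutamate receptors, rose from 1.19, 1.54 and 1.47 to 6.13, 6.8 and 5.67 RPKM (1.82 ± 0.11; cocaine 5.6 ± 0.305 RPKM). Sv2c, a synaptic vesicle glycoprotein abundant in the basal ganglia, rose from 7.8, 7.87 and 7.06 to 26.4, 28.3 and 25.3 RPKM (1.75 ± 0.066; cocaine 22.3 ± 0.934 RPKM). The cocaine mean was nearer to the withdrawal lanes than to the saline lanes in each gene.

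The rest of the 12 largest higher calls were the predicted models Gm5567 (1.75 ± 0.14) and Gm13872 (1.73 ± 0.19) and the very short models Mir1893 and Mir421; these and the 2 little-described models above are uncertain. The gene models of 9 of these 12, Kcnq3, Igsf9b, Tnr, Bmpr2, Grin2a and Sv2c among them, were under 0.5 times as long as the gene's longest transcript in the GENCODE reference. The model of Kcnq3 had 2878 bp against 11824 bp in the reference, and that of Bmpr2 3507 bp against 12899 bp. Among all genes called higher 11.2% had such short models, among those called lower 8.0%, and among all compared genes 3.89%. A model this short leaves part of the transcript uncounted, and its part in these differences was not tested.

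The largest lower call was Slc17a7, the vesicular glutamate transporter VGLUT1 of cortical, hippocampal and amygdalar projection neurons. It was at 19.4, 18.2 and 17.4 RPKM in the saline lanes and at 3.29, 4.34 and 4.26 RPKM in the withdrawal lanes, a difference of -2.08 ± 0.12. No lane came near the other library, and the cocaine library was at 5.54 ± 0.454 RPKM. In bulk RNA, fewer cells of a type and less RNA per cell cannot be told apart. Medium spiny neurons do not make VGLUT1, so its level beside other cortical transcripts is given with the cell type markers below.

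The other 11 of the 12 largest lower calls had gene models of 80 to 1934 bp, all shorter than the median of 3531 bp. Pxmp2, a channel protein of the peroxisomal membrane, fell from 7.2, 6.81 and 6.77 to 1.5, 3.15 and 1.51 RPKM (-1.60 ± 0.29; cocaine 4.59 ± 1.69 RPKM), and the withdrawal lanes were spread around a low level. Hmgn5, a nucleosome-binding protein, fell from 6.75, 7.4 and 4.61 to 1.86, 1.79 and 1.99 RPKM (-1.48 ± 0.19; cocaine 2.78 ± 1.22 RPKM). Fxyd3, a regulator of the sodium pump, fell from 6.37, 6.59 and 8.72 to 1.85, 2.69 and 4.15 RPKM (-1.23 ± 0.31), and Rangrf, a Ran-binding protein, from 17.8, 12.5 and 20.6 to 6.85, 5.85 and 8.34 RPKM (-1.20 ± 0.25). Cck, the cholecystokinin precursor, was the most abundant of the 12, at 38.7, 41.8 and 52.5 RPKM in the saline lanes and 25.8, 16.8 and 19.7 RPKM in the withdrawal lanes (-1.09 ± 0.22; cocaine 25.1 ± 0.862 RPKM). Ptpla, Nme5 and S100a11 are described with the genes that stood apart from both other libraries. A230065H16Rik, Mir1892 and n-R5s185 are predicted or very short models and are uncertain.

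**Figure D3:**
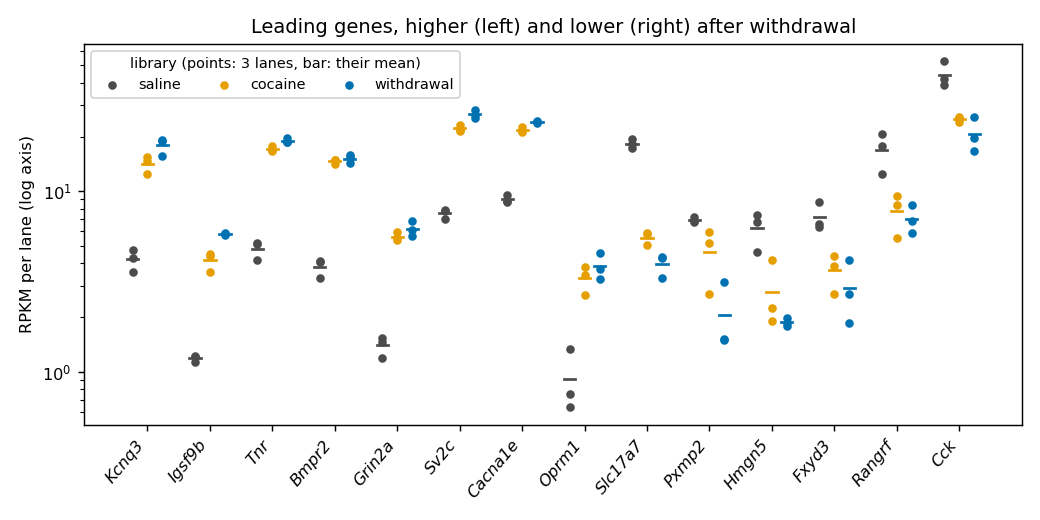
Level of 14 genes in each lane (vertical, RPKM on a log axis), by library: saline in grey, cocaine in orange, withdrawal in blue, with a bar at the mean of the 3 lanes. The 8 genes on the left were called higher and the 6 on the right lower after withdrawal; the cocaine mean of each gene lies nearer to the withdrawal mean than to the saline mean except for Pxmp2, where it lies nearer to saline.

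Of 52 compared genes of dopamine and cyclic AMP signalling in medium spiny neurons, 3 were higher, none was lower, and the median difference was 0.08, against -0.056 over all genes. Drd3, the D3 dopamine receptor, which within the striatum is concentrated in its ventral part, was at 2.81, 1.73 and 1.26 RPKM in the saline lanes, 2.25, 4.2 and 3.52 RPKM in the cocaine lanes and 5.37, 6.71 and 5.24 RPKM in the withdrawal lanes (1.41 ± 0.29). The saline lanes were low and spread, and all withdrawal lanes were above both other libraries. The D1 and D2 receptor genes did not share this: Drd1a was at 43.2 ± 4.33 and 42.5 ± 0.558 RPKM (-0.017 ± 0.083) and Drd2 at 38.3 ± 0.959 and 40.8 ± 4.97 RPKM (0.083 ± 0.10), with overlapping lanes.

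The other higher members were Pde10a, the striatal phosphodiesterase that degrades cyclic AMP and cyclic GMP, from 34.7, 35.5 and 33.9 to 54.9, 56.1 and 58.3 RPKM (0.69 ± 0.031; cocaine 44.4 ± 1.35 RPKM), and Gpr52, an orphan receptor of striatal neurons, from 8.18, 6.81 and 6.62 to 10.9, 11.5 and 11.2 RPKM (0.61 ± 0.092). The call of Pde10a was lost after centring by length (0.41), which left 2 higher. That of Gpr52 was lost without saline lane 2 or lane 3 (0.57 and 0.56). Ppp1r1b (-0.39 ± 0.026; cocaine 389 ± 15.3 RPKM), and Adora2a, the adenosine receptor of D2 neurons (-0.011 ± 0.045), had no call. None of 24 transcription factors of these neurons was called; the member furthest from 0 was Bcl11b, the regulator of their differentiation CTIP2 (0.53 ± 0.072).

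Neuropeptide precursors had mostly negative differences. Of 31 compared, 28 had a negative difference, 6 were called lower and none higher, and the median was -0.46. After centring by length the median was -0.15, with 4 lower and 1 higher. The main peptides of medium spiny neurons had no call. Pdyn, the dynorphin precursor, was at 55.8 ± 2.35 RPKM in saline and 54.4 ± 1.43 RPKM in withdrawal (-0.035 ± 0.041). Penk differed by -0.28 ± 0.033. Tac1, the substance P precursor, was at 33.7, 31.8 and 31.4 RPKM in the saline lanes and 22.6, 23.3 and 21.1 RPKM in the withdrawal lanes (-0.52 ± 0.051; cocaine 19 ± 1.35 RPKM), and Cartpt, the precursor of the CART peptide, at 58.5, 50.6 and 52.3 RPKM in the saline lanes and 41.8, 37.2 and 41.5 RPKM in the withdrawal lanes (-0.42 ± 0.082; cocaine 32.7 ± 1.75 RPKM). Lanes of Tac1 and Cartpt did not overlap, but the differences were below the size limit.

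The called precursors were Cck, above, and 5 others. Pmch, the melanin-concentrating hormone precursor, was at 6.55, 3.78 and 2.63 RPKM in the saline lanes and 0, 1.81 and 0.735 RPKM in the withdrawal lanes (-2.02 ± 0.73; cocaine 0.879 ± 0.142 RPKM), and 1 withdrawal lane was listed at 0. Avp, the vasopressin precursor, fell from 35.8, 33.8 and 37.4 to 20.2, 14.3 and 22.6 RPKM (-0.91 ± 0.20; cocaine 24.9 ± 2.78 RPKM). Oxt, the oxytocin precursor, fell from 130.1, 129 and 102 to 74.1, 65 and 57.1 RPKM (-0.87 ± 0.16; cocaine 65.1 ± 15 RPKM). These peptides are made by neurons of the hypothalamus. Nmb, the neuromedin B precursor, fell from 7.34, 11.9 and 6.68 to 2.33, 6.47 and 5.12 RPKM (-0.89 ± 0.46), a call lost without withdrawal lane 1 (-0.50) and after centring by length. Prok2, the prokineticin 2 precursor and the last of the 6, named after its values were seen, differed by -0.63. Calls for Cck, Pmch, Avp and Oxt held after centring by length. None of 19 genes of peptide processing and secretory granules was called, among them Pam, which amidates peptides (-0.35 ± 0.076), and Scg3, a granule protein (-0.48 ± 0.024).

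Of 27 peptide and opioid receptors 3 were higher and none lower (median 0.041), and 4 were higher after centring by length. The median turned negative without withdrawal lane 1 (-0.058), without saline lane 1 (-0.021) and under a filter of 5 RPKM. It was also negative (-0.019) over the 25 members with at least 1 RPKM in both libraries, of which 1, Oprd1, was higher. Oprm1, the mu opioid receptor, was at 0.756, 1.34 and 0.634 RPKM in the saline lanes and 4.56, 3.28 and 3.73 RPKM in the withdrawal lanes (1.65 ± 0.24; cocaine 3.31 ± 0.594 RPKM). Its saline mean was 0.908 RPKM, below 1 RPKM, and lanes that do not overlap are part of the rule for a call. Oprd1, the delta opioid receptor, rose from 1.74, 1.63 and 2.09 to 4.04, 3.78 and 3.04 RPKM (0.83 ± 0.14; cocaine 2.66 ± 0.331 RPKM), and Galr1, a galanin receptor, from 0.396, 0.549 and 1.09 to 1.63, 2.09 and 2.01 RPKM (1.07 ± 0.26; cocaine 1.88 ± 0.782 RPKM). Oprk1, the kappa opioid receptor that dynorphin activates, was at 4.33 ± 0.589 and 5.5 ± 1.53 RPKM (0.29 ± 0.24), with overlapping lanes. The calls for Oprm1, Oprd1 and Galr1 held after centring by length.

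**Figure D4:**
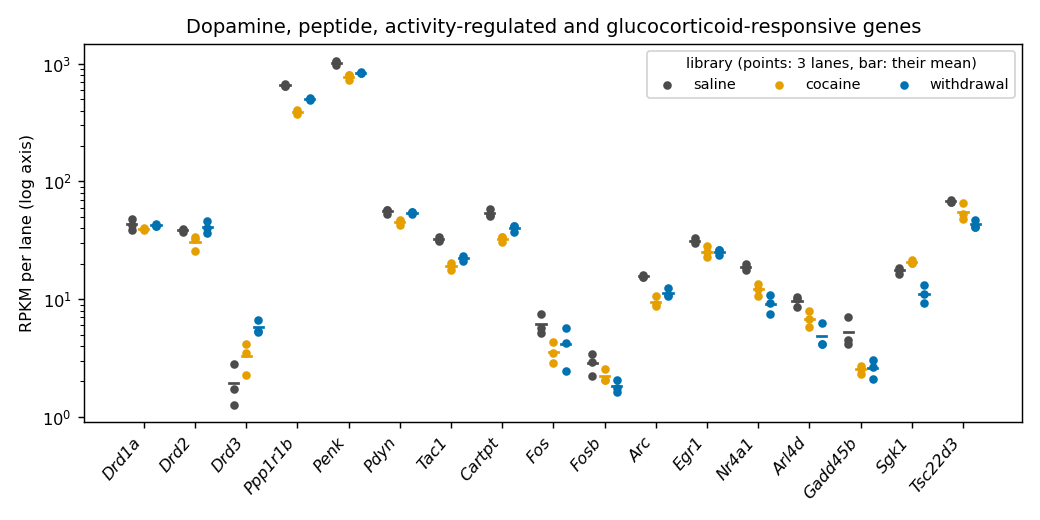
Level of 17 genes in each lane (vertical, RPKM on a log axis), by library: saline in grey, cocaine in orange, withdrawal in blue, with a bar at the mean of the 3 lanes. Drd3, called higher, is the 1 gene shown that is higher in all withdrawal lanes than in all others; Nr4a1, Arl4d, Gadd45b, Sgk1 and Tsc22d3 were called lower against saline, and the others had no call.

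Immediate-early genes are switched on within minutes of neuronal activity, and dopamine D1 signalling induces many of them through cyclic AMP and the transcription factor CREB. Of 38 compared activity-regulated genes, 30 had a negative difference, 3 were called lower and 1 higher, and the median was -0.31 (-0.16 after centring by length, with 2 lower and 2 higher). Nr4a1, a nuclear receptor of this class, was at 17.8, 19.9 and 18.9 RPKM in the saline lanes, 13.4, 10.6 and 12.2 RPKM in the cocaine lanes and 7.46, 10.8 and 9.28 RPKM in the withdrawal lanes (-1.01 ± 0.15). Arl4d, a small GTPase, fell from 8.52, 10.5 and 9.97 to 4.17, 6.22 and 4.18 RPKM (-0.94 ± 0.19; cocaine 6.83 ± 1.09 RPKM). Gadd45b, a stress and activity-induced gene linked to DNA demethylation, fell from 4.15, 4.53 and 7.06 to 2.67, 2.11 and 3.06 RPKM (-0.86 ± 0.25; cocaine 2.53 ± 0.186 RPKM), a call lost after centring by length (-0.55). Klf4, a transcription factor also made by endothelial cells, was higher, from 0.841, 0.359 and 1.19 to 1.88, 2.23 and 1.86 RPKM (0.99 ± 0.29).

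The best-known members had no call. Fos was at 5.74, 5.19 and 7.46 RPKM in the saline lanes and 5.67, 2.46 and 4.25 RPKM in the withdrawal lanes (-0.57 ± 0.34), and these lanes overlapped. Fosb, whose truncated product accumulates under chronic cocaine, was at 2.21, 2.93 and 3.44 RPKM in the saline lanes and 1.77, 1.64 and 2.06 RPKM in the withdrawal lanes (-0.52 ± 0.17); the values are for the whole gene and do not separate the isoforms. Arc, a regulator of AMPA receptor traffic, was at 15.4, 16.1 and 15.4 RPKM in the saline lanes and 12.5, 10.8 and 10.6 RPKM in the withdrawal lanes (-0.45 ± 0.077; cocaine 9.5 ± 0.964 RPKM), and Egr1 at 30.1, 33.3 and 30.9 RPKM in the saline lanes and 26.2, 26.1 and 23.7 RPKM in the withdrawal lanes (-0.31 ± 0.062). For Fosb, Arc and Egr1 every withdrawal lane was below every saline lane, by less than the size limit. Npas4 (-0.096 ± 0.16), Junb (-0.37 ± 0.096), Nr4a2 (-0.17 ± 0.22) and Nr4a3 (-0.37 ± 0.20) had no call. Bdnf, the neurotrophin, lay below the limit for comparison, at 1.41, 0.653 and 1.67 RPKM in the saline lanes and 0.692, 0.578 and 0.352 RPKM in the withdrawal lanes.

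The promoters of the 3 activity-regulated genes called lower are shown because CREB sites mark many genes of this class and these 3 differ in them. Each is the 300 bases from 250 before to 50 after the start of the gene in RefSeq (GRCm38.p6), 5′ to 3′ on the gene's strand. Capitals mark the core TGACG of a CREB site on either strand, which the full site TGACGTCA contains.
Nr4a1, chr15:101266596-101266895, + strand: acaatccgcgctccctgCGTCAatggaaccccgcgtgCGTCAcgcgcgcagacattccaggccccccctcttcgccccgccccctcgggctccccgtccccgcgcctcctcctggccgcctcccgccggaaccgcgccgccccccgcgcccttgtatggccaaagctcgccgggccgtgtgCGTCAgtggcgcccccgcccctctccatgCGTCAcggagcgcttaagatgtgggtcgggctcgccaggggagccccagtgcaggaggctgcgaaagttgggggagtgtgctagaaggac
Arl4d, chr11:101665291-101665590, + strand: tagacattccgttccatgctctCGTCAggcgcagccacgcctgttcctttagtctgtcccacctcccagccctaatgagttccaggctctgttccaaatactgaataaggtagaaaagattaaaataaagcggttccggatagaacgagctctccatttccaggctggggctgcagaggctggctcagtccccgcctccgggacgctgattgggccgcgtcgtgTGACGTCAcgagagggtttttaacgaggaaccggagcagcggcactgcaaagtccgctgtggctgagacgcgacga
Gadd45b, chr10:80929841-80930140, + strand: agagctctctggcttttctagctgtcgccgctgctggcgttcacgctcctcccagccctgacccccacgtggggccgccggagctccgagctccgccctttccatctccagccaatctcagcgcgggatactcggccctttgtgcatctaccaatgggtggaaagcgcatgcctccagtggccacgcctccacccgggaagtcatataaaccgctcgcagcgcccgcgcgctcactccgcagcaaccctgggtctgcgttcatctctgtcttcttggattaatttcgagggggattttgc
The promoter of Nr4a1 held 4 core sites and no full site, that of Arl4d 3 core sites, with the full site counted on both strands, and that of Gadd45b none. The core was in 25 of 43 promoters of the activity-regulated genes in the table (58.1%), which belong to 31 of the 40 genes of this list; the other 9, Arc and Egr1 among them, had no promoter matched and are not counted. The core was in 20.8% of all 32851 promoters of this length; the full site was in 4 of the 43 (9.30%) and in 1.79% of all. These are matches of letters, not measured binding. Nr4a2 and Nr4a3, relatives of Nr4a1 with no call, had 4 core sites each.

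Glucocorticoid-responsive genes, which follow the stress hormone corticosterone, were partly lower: of 20 compared, 4 were lower, 1 was higher, and the median was -0.22. Sgk1, a kinase induced by glucocorticoids, was at 18.6, 16.4 and 17.6 RPKM in the saline lanes, 21.4, 20.4 and 20.3 RPKM in the cocaine lanes and 11, 13.1 and 9.29 RPKM in the withdrawal lanes (-0.64 ± 0.15), below both other libraries; its call was lost without withdrawal lane 3 (-0.52). Tsc22d3, the leucine zipper protein GILZ, fell from 69.5, 67.1 and 67.2 to 47, 41.2 and 41.2 RPKM (-0.65 ± 0.065; cocaine 55.3 ± 8.73 RPKM), and Ddit4, an inhibitor of mTOR signalling, from 26.8, 27.9 and 29.5 to 18.4, 17.9 and 17.3 RPKM (-0.64 ± 0.047; cocaine 22.3 ± 1.72 RPKM). Mt2, a metallothionein and the other lower member, differed by -0.59, and Zbtb16, a zinc finger factor, was higher (0.73 ± 0.066). Fkbp5, a chaperone of the glucocorticoid receptor (-0.19 ± 0.12), the receptor gene Nr3c1 (-0.092 ± 0.081) and Per1 (-0.14 ± 0.029) had no call. After centring by length 1 lower and 1 higher call were left, Sgk1 and Zbtb16, and scaling to the 75th percentile left no lower call.

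Ion channel genes were called higher only. Of 65 compared potassium channel genes 12 were higher (18.5%) and none lower, with a median of 0.086; 11 were higher after centring by length. Of the 12, 4 were below 1 RPKM in saline, and among the 60 channel genes with at least 1 RPKM in both libraries 8 were higher (13.3%). Beside Kcnq3 they included Kcna3, a voltage-gated channel, from 8.02, 11.4 and 7.89 to 22.5, 22.4 and 17.8 RPKM (1.17 ± 0.20; cocaine 14.2 ± 2.09 RPKM), Kcnk9, the leak channel TASK-3, from 6.47, 4.55 and 7.15 to 16.7, 16.1 and 15 RPKM (1.35 ± 0.19; cocaine 17.1 ± 1.94 RPKM), and Kcng3, a modulatory subunit at low level, from 0.223, 0.422 and 0.274 to 3.31, 1.39 and 2.13 RPKM (1.73 ± 0.31). Kcnq5, a related subunit of the M current, had no call (0.39 ± 0.093). The gene model of Kcnk9 had 1209 bp against 12300 bp in the reference, and the part of this short model in its difference was not tested.

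Of 30 sodium and calcium channel genes 4 were higher and none lower (median 0.25; 2 higher after centring by length). All were pore subunits of calcium channels. Cacna1e, of the R type, rose from 8.88, 8.7 and 9.47 to 24.4, 24.3 and 23.9 RPKM (1.38 ± 0.037; cocaine 21.9 ± 0.798 RPKM), and Cacna1c, of the L type, from 4.9, 4.49 and 4.92 to 10.9, 8.44 and 11.4 RPKM (1.02 ± 0.13). Cacna1a, of the P/Q type (0.63 ± 0.091), and Cacna1h, of the T type (0.59 ± 0.04), lost their calls after centring by length, and Cacna1h also without saline lane 1 or 2 or withdrawal lane 1 (0.55 to 0.58).

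Among 37 glutamate receptor and auxiliary subunit genes 2 were higher (5.41%, against 3.96% of all genes) and none lower. The median was 0.15; it was 0.08 after centring by length, where Grin2a and, in place of Grik3, another member were higher, and 0.073 without withdrawal lane 1. Beside Grin2a the second call was Grik3, a kainate receptor subunit, at 11.8 ± 0.143 and 18 ± 0.622 RPKM (0.59 ± 0.029), whose call was lost without saline or withdrawal lane 2 (0.58 and 0.56) and after centring by length. Grin2b, the GluN2B subunit, was at 11.4, 11.2 and 11.6 RPKM in the saline lanes and 17.1, 17.4 and 17.4 RPKM in the withdrawal lanes, just short of the size limit (0.58 ± 0.014), and had no call. The obligatory NMDA subunit Grin1 (0.25 ± 0.037) and the AMPA subunits Gria1 (0.21 ± 0.038) and Gria2 (-0.05 ± 0.045) had none either. Of 33 genes of postsynaptic density scaffolds 3 were higher and none lower (median 0.27), among them Lrrc7, densin (0.78 ± 0.074), and Shank1, a scaffold at 50.3 ± 1.2 and 80.1 ± 5.9 RPKM (0.66 ± 0.065), of which Shank1 lost its call after centring by length, leaving 2 higher. None of 28 genes of GABA synthesis, transport and receptors was called; Gabbr2, a GABA-B receptor subunit, differed by 0.56 ± 0.035.

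On the presynaptic side, 5 of 53 genes of synaptic vesicles and the active zone were higher and none lower. The median was -0.0087 and turned positive after scaling to the 75th percentile (0.063) or setting the median of all genes to 0. It also did so under other settings, such as without saline lane 2 or 3 or without withdrawal lane 1. Syt10, a synaptotagmin, rose from 2.97, 2.9 and 2.88 to 6.59, 7.89 and 7.14 RPKM (1.17 ± 0.071; cocaine 7.63 ± 1.09 RPKM). The large active zone proteins Pclo (0.64 ± 0.049) and Bsn (0.62 ± 0.035) were called too, but not after centring by length, which left 2 higher, Sv2c and Syt10; the remaining call was Dnm3, a dynamin, named after its values were seen (0.61).

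Of 18 compared serotonin and acetylcholine receptor genes 4 were higher and 1 lower (median 0.22; 6 higher and none lower after centring by length). Chrm5, a muscarinic receptor, rose from 2.67, 1.27 and 2.13 to 3.58, 7.07 and 5.85 RPKM (1.24 ± 0.36; cocaine 6.38 ± 1.99 RPKM). Htr1b, a serotonin receptor on the terminals of medium spiny neurons, rose from 8.4, 7.14 and 6.78 to 12.1, 11.5 and 13.4 RPKM (0.70 ± 0.11; cocaine 11.8 ± 1.66 RPKM), Htr4 from 0.947, 0.663 and 0.788 to 2.08, 1.84 and 2.11 RPKM (0.96 ± 0.10), and Htr2a from 1.29, 1.06 and 1.81 to 2.67, 2.49 and 2.31 RPKM (0.68 ± 0.17), a call lost without saline lane 2 (0.55). The lower gene was Htr3a, a serotonin-gated channel of interneurons, named after its values were seen (-0.60). The gene model of Htr1b had 1161 bp against 4724 bp in the reference, and the part of this short model in its difference was not tested.

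Axon guidance and adhesion genes, which direct growing axons and hold synapses together, had the most higher calls of the 48 lists. Of 101 compared, 16 were higher (15.8%), 1 was lower, and the median was 0.30. Larger shares were higher among endothelial and mural genes (36.1%), serotonin and acetylcholine receptors (22.2%) and potassium channels (18.5%). After centring by length 8 axon guidance and adhesion genes were higher and 2 lower, with a median of 0.16. The semaphorin Sema3g rose from 0.458, 0.624 and 0.578 to 1.71, 1.63 and 1.67 RPKM (1.04 ± 0.071), the ephrin receptor Epha6 from 2.77, 2.16 and 2.37 to 5.44, 4.67 and 5.2 RPKM (0.94 ± 0.11), the semaphorin receptor Plxna1 from 9.41, 8.9 and 9.22 to 18.6, 18.4 and 16.4 RPKM (0.92 ± 0.059), and the adhesion molecule Ncam2 from 3.2, 2.67 and 3.56 to 6.1, 6.37 and 6.21 RPKM (0.89 ± 0.10). All of these calls held after centring by length. The lower gene was Ntng1, netrin G1, an adhesion molecule of thalamic and other projection neurons (-0.77 ± 0.10).

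Of 17 genes of perineuronal nets and extracellular matrix 2 were higher, Tnr and Hspg2, the basement membrane proteoglycan perlecan (0.93 ± 0.084), and none lower. Kinesins, the motors of transport along microtubules, had 3 of 24 higher and none lower, Kif26b (1.21 ± 0.12), Kif13b (0.87 ± 0.11) and Kif21b (0.59 ± 0.032), the last without a call after centring by length, which left 2 higher. Actin and spine genes had 2 of 54 higher and 2 lower, 3.70% each way and so near the shares of all genes: Add2, a subunit of adducin, rose from 12, 14.1 and 14.2 to 32.1, 29.5 and 28.6 RPKM (1.14 ± 0.091) and Arhgap32, a GTPase-activating protein, differed by 0.80 ± 0.028, while the actin-sequestering Tmsb4x fell from 492, 495 and 512 to 278, 299 and 293 RPKM (-0.78 ± 0.036) and the GTPase gene Cdc42 differed by -0.63 ± 0.069. Of these 4 only Add2 kept its call after centring by length, and Cdc42 also lost it without withdrawal lane 1 (-0.57). Protocadherins had 6 of 66 higher and none lower but a negative median (-0.26), and 2 higher after centring by length; Pcdh7 (0.86 ± 0.072) and Pcdh10 (0.82 ± 0.041) are single genes, while Pcdhb2 (1.30 ± 0.13) and Pcdhb16 (0.71 ± 0.065) belong to a cluster of similar copies and are uncertain. Pcdh10 and Pcdhb16 were among the calls lost by that centring.

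Neurotrophic factors and their receptors had 1 of 28 higher and 2 lower. Among the lower was Fgf9, a glial and neuronal growth factor, which fell from 3.86, 4.47 and 3.71 to 1.87, 2.59 and 2.85 RPKM (-0.63 ± 0.17), a call lost without saline lane 2 or withdrawal lane 1 (-0.56 and -0.48). Erbb4, the neuregulin receptor of interneurons, was higher (0.71 ± 0.19), though not after centring by length, which left none higher and 1 lower. Glutamate transport and recycling genes had no call but Slc17a7 among 15, and the 9 endocannabinoid genes had none, Cnr1 with 0.18 ± 0.033 and Dagla with 0.42 ± 0.068. A list of 43 genes tied to cocaine by other work had no call, with differences from -0.52 to 0.58, and 1 lower after centring by length; Kalrn, a spine guanine exchange factor, differed by 0.33 ± 0.034.

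Groups of genes of protein synthesis and respiration had negative medians, on a scale of small shifts. All 84 compared cytosolic ribosomal protein genes had negative differences, from -0.89 to -0.15, with a median of -0.49; 22 were called lower (26.2%, against 3.37% of all genes) and none higher. Their summed level was 30871 to 31890.5 RPKM over the saline lanes, 22483 to 22702 over the cocaine lanes and 22398 to 22758 over the withdrawal lanes. Examples were Rps23, from 126, 129.7 and 129.6 to 59.2, 79 and 70.9 RPKM (-0.89 ± 0.12), Rpl22l1 (-0.86 ± 0.12) and Rpl36a (-0.79 ± 0.08); many of these genes have near-identical pseudogenes, so single values are uncertain. The genes are short, with a median model of 1119 bp, and after centring by length the median was -0.26 with 3 called lower.

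Nuclear-encoded genes of oxidative phosphorylation had 84 of 87 negative differences and a median of -0.41; 13 were lower and none higher. Cox7a1, a subunit of cytochrome oxidase, fell from 3.03, 5.79 and 5.91 to 2.46, 1.65 and 2.23 RPKM (-1.01 ± 0.31), and the complex I subunits Ndufc1 and Ndufa5 by 0.78 and 0.77 on the log2 scale. After centring by length the median was -0.21 and 1 call, Cox7a1, was left. That call rests on few reads, 43.3 in the saline library and 14.9 in the withdrawal library over a model of 366 bp. Mitochondrial ribosomal proteins had 5 of 76 lower (median -0.33), proteasome subunits 3 of 37 (median -0.42) and chaperones 4 of 76 (median -0.26), with none higher; after centring by length 1, 0 and 0 were lower. Mrps18c (-0.80 ± 0.22) led the first of these groups, before Mrpl42, Mrpl41, Mrps36 and Mrps14. The proteasome subunits were Psma5 (-0.77 ± 0.11), Psmc6 (-0.63 ± 0.12) and Psmb7 (-0.59 ± 0.097), and the chaperones were the mitochondrial Hspe1 (-0.84 ± 0.12), Dnajc8 (-0.74 ± 0.097), Hspb6 (-0.68 ± 0.24) and Hsp90aa1, the inducible HSP90 (-0.61 ± 0.039). The calls of Mrpl42, Mrpl41, Mrps36, Psmc6, Psmb7, Hspb6 and Hsp90aa1 were each lost without at least 1 of the lanes (-0.58 to -0.49); the constitutive chaperone Hspa8 had none (-0.20 ± 0.024).

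Of 107 chromatin regulators 5 were higher, a share (4.67%) near that of all genes, and none lower (median 0.11; 3 higher after centring by length). They were Ep300, the acetyltransferase p300 (0.64), the histone H3 lysine 4 methyltransferases Mll2, from 13.9, 13.2 and 12.5 to 29.2, 28.2 and 28.4 RPKM (1.09 ± 0.044), Mll1 (0.92 ± 0.034) and Mll3 (0.73 ± 0.052) and the class IIa histone deacetylase Hdac4, from 4.49, 4.97 and 3.81 to 8.9, 8.61 and 8.96 RPKM (0.93 ± 0.10; cocaine 7.64 ± 0.438 RPKM); Mll3 and Ep300 had no call after that centring. Of 56 splicing factors 1 was higher, Srrm2 (0.75 ± 0.036), and 1 lower, the neuronal RNA-binding protein Elavl4 (-0.59 ± 0.091); Srrm2 lost its call after centring by length, which gave 2 lower and none higher, and Elavl4 without saline lane 1 or withdrawal lane 1 or 2 (-0.56 to -0.55). None of 23 circadian clock genes was called, Dbp having the most negative difference (-0.57 ± 0.077). Of 34 imprinted genes 5 were higher and none lower: Mest (0.89 ± 0.10), Zim1 (0.78 ± 0.22), Peg3, from 102, 101 and 98.3 to 164, 167 and 163 RPKM (0.71 ± 0.017; cocaine 166 ± 1.04 RPKM), Plagl1 (0.62 ± 0.046) and Peg10 (0.61 ± 0.018), of which Mest and Zim1 kept their calls after centring by length.

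**Figure D5:**
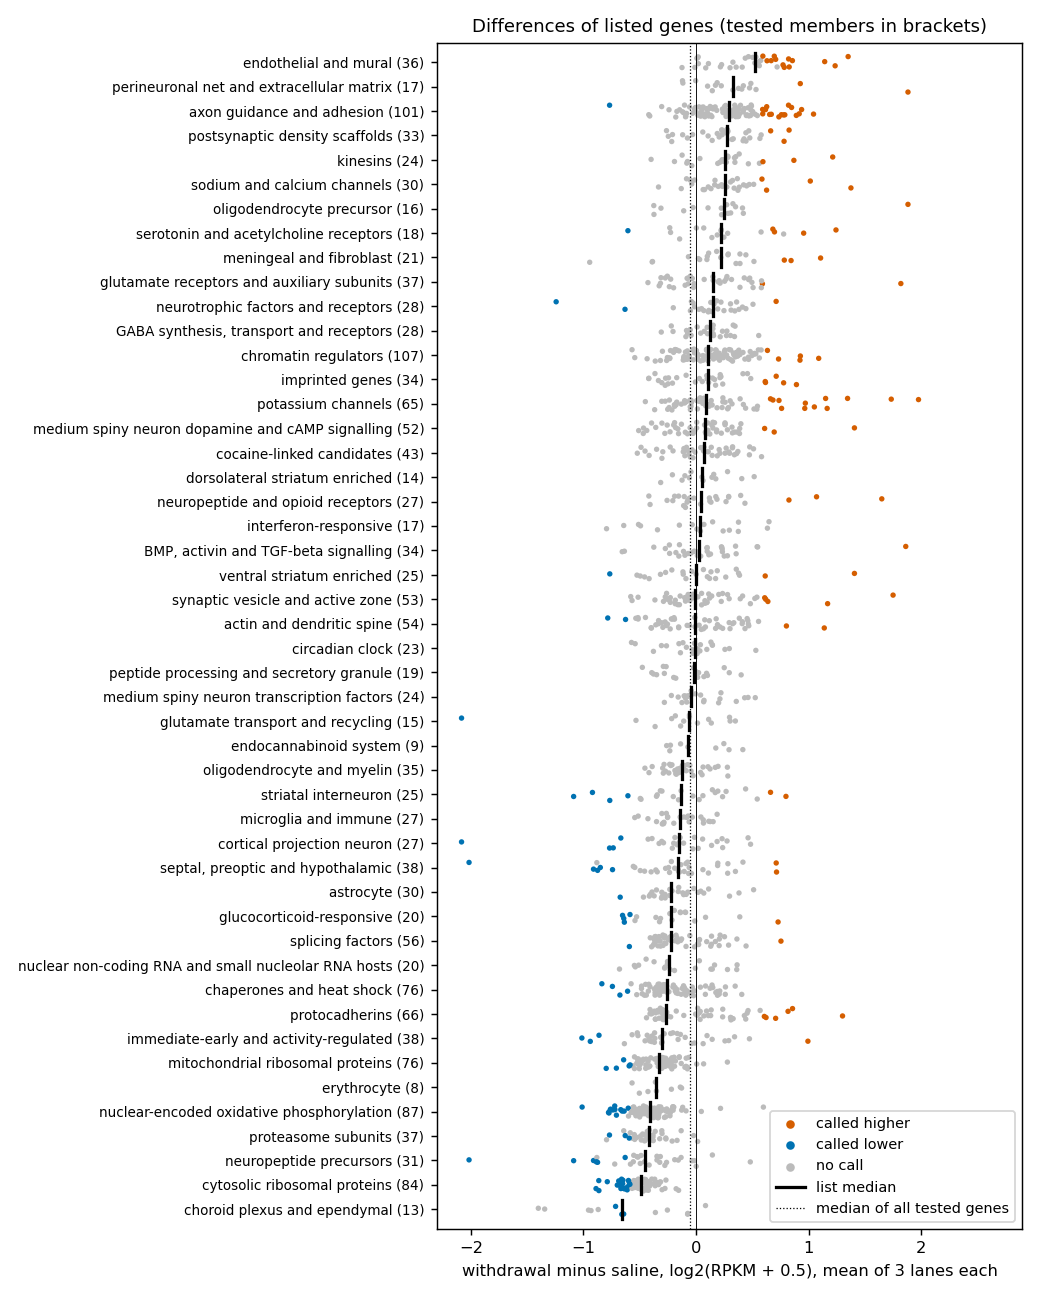
Difference of each compared member (withdrawal minus saline, log2(RPKM + 0.5), horizontal) of 48 gene lists, with the number of members in brackets; orange points were called higher, blue lower, grey not called, black bars are list medians and the dotted line is the median of all compared genes. Lists run from endothelial and mural genes (median 0.53) at the top to choroid plexus and ependymal genes (-0.66) at the bottom, next to ribosomal proteins (-0.49).

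Marker lists of cell types showed which transcripts of other cells moved with these results. Endothelial and mural markers had the highest median of the 48 lists, 0.53, with 13 of 36 higher and none lower, and 14 higher after centring by length. Their summed level over all 38 genes was 487 to 508 RPKM in the saline lanes, 546 to 557 in the cocaine lanes and 578 to 582 in the withdrawal lanes, and no member was at 0. Ptprb, a vascular phosphatase, rose from 1.26, 1.36 and 1.3 to 3.87, 4.07 and 3.36 RPKM (1.24 ± 0.076; cocaine 3.21 ± 0.244 RPKM), Flt1, a VEGF receptor, from 2.99, 2.78 and 3.09 to 5.82, 5.96 and 5.47 RPKM (0.86 ± 0.052; cocaine 5.52 ± 0.388 RPKM), and the endothelial factor Sox18 from 1.44, 3.11 and 1.78 to 5.34, 4.84 and 5.01 RPKM (1.14 ± 0.27; cocaine 3.03 ± 1.01 RPKM). The call of Flt1 was lost after centring by length (0.57). Foxq1 was also higher (1.35 ± 0.54).

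Of 21 meningeal and fibroblast markers 3 were higher and none lower, namely the basement membrane genes Col4a1 (0.84 ± 0.05) and Col4a2 (0.78 ± 0.10), which vessels make too, and Fn1, fibronectin, from 2.16, 2.38 and 2.83 to 5.27, 6.48 and 5.81 RPKM (1.11 ± 0.12). After centring by length 5 were higher. The summed level of this list was 439 to 452 RPKM in saline and 391 to 422 RPKM in withdrawal. The sum over all genes fell too, from 406470 to 361065 RPKM, while the median difference of the list was 0.22. The fibroblast collagen Col1a1 was listed at 0 in all saline lanes and in 2 of the 3 withdrawal lanes. The calls of Sema3g, Hspg2 and Klf4 above are of genes that vessels also express; the part of vascular RNA in them was not tested.

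Choroid plexus and ependymal markers had the lowest median, -0.66, with 3 of 13 lower and none higher. The median, and so its rank, depended on the filter. It was -0.36 over the 9 members with at least 1 RPKM in both libraries, -0.27 with no filter and -0.074 under a filter of 5 RPKM. In the list, 13 further members were below the limit, and Cldn2, Slc4a5 and Sntn were listed at 0 in withdrawal. Summed levels were 88.2 to 101 RPKM in saline, 84.9 to 93 in cocaine and 72 to 77 in withdrawal. The called members, Rarres2 (-0.71 ± 0.32), 1700009P17Rik (-0.66 ± 0.21) and Rsph1, of motile cilia (-0.64 ± 0.11), lost their calls after centring by length and each also without 1 lane (-0.46, -0.51 and -0.56 at the least). Ttr, the transthyretin of the choroid plexus, had lane values of 2.93, 1.29 and 2.9 RPKM in the saline library, 5.26, 10.0 and 7.24 RPKM in the cocaine library and 1.33, 0.617 and 0.901 RPKM in the withdrawal library, with saline and withdrawal lanes that overlapped.

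Of 27 cortical projection neuron markers 4 were lower and none higher (median -0.15). Beside Slc17a7 and Ntng1 these were Fezf2, a factor of deep-layer neurons, from 1.65, 1.86 and 1.37 to 1.17, 0.523 and 0.705 RPKM (-0.74 ± 0.23), and Nrgn, neurogranin, which striatal neurons express too, from 164, 163 and 152 to 104, 98.1 and 98.5 RPKM (-0.67 ± 0.046). The cortical factor Tbr1 was at 2.7, 2.52 and 1.97 RPKM in the saline lanes and 1.85, 1.57 and 1.68 RPKM in the withdrawal lanes (-0.39 ± 0.13) without a call, and Neurod6, at 0.502, 0.365 and 0.488 RPKM in the saline lanes and 0.0837, 0.07 and 0.319 RPKM in the withdrawal lanes, was below the limit. Fezf2 and Nrgn lost their calls after centring by length, which left 2 lower, and Fezf2 also without withdrawal lane 2 (-0.58). The summed level of the 33 genes was 778 to 804 RPKM in saline and 662 to 696 in withdrawal. The sum over all genes also fell, from 406470 to 361065 RPKM. The part of cortical tissue in the difference of Slc17a7 was not tested. Slc17a6, the VGLUT2 transporter of thalamic and hypothalamic neurons, was at 9.7, 9.61 and 9.05 RPKM in the saline lanes and 5.47, 6.7 and 7.07 RPKM in the withdrawal lanes (-0.53 ± 0.11) and had no call.

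Septal, preoptic and hypothalamic markers had 5 of 38 lower and 2 higher (median -0.16). The lower ones Pmch, Avp and Oxt are peptides given above, joined by Cbln1, a synapse organiser (-0.85 ± 0.14), and the factor Zic2 (-0.74). The higher ones were Peg3 and Agrp, the agouti-related peptide, at 1.17 RPKM in saline and 2.25 RPKM in withdrawal; Zic2 and Agrp were named after their values were seen, and centring by length left 4 lower and 1 higher. Hcrt, the hypocretin precursor, was at 2.33, 1.93 and 0.876 RPKM in the saline lanes and 0.481, 2.59 and 0 RPKM in the withdrawal lanes with overlapping lanes. The summed level was 1913 to 1967 RPKM in saline, 1703 to 1825 in cocaine and 1686 to 1697 in withdrawal. Over all genes the sum was 406470, 362941 and 361065 RPKM in the same order. The part of neighbouring tissue in the lower hypothalamic peptides was not tested.

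Striatal interneuron markers had 4 of 25 lower and 2 higher. Calb2, calretinin, fell from 56, 53.6 and 50.8 to 29.8, 29.8 and 34.3 RPKM (-0.77 ± 0.078; cocaine 39.5 ± 2.93 RPKM), and Crhbp, a binding protein of corticotropin-releasing hormone, from 2.81, 3.54 and 4.36 to 2.14, 1.32 and 1.5 RPKM (-0.92 ± 0.23). Nos1, neuronal nitric oxide synthase, was higher, from 8.18, 8.27 and 9.22 to 15.4, 14.9 and 15.4 RPKM (0.80 ± 0.055), whereas Sst (-0.13 ± 0.021) and Npy (-0.49 ± 0.23), the peptides of the same interneurons, had no call. The remaining calls were Cck and Htr3a, lower, and Slc5a7, the choline transporter of cholinergic neurons, higher (0.66), named after its values were seen. The calls of Calb2 and Nos1 were lost after centring by length, which gave 2 lower and 2 higher.

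Glial markers were nearly without calls: none of 35 oligodendrocyte and myelin genes, of 27 microglia and immune genes or of 17 interferon-responsive genes was called (1 of the last was higher after centring by length), and 1 of 30 astrocyte genes was lower, S100b, from 68.8, 69.4 and 72.3 to 41.9, 42.8 and 46.8 RPKM (-0.67 ± 0.053), a call lost after centring by length. Mbp (-0.19 ± 0.015), Gfap (-0.35 ± 0.09) and Aldoc (-0.37 ± 0.033) had no call. Tnr, which oligodendrocyte precursors also make, was the 1 called gene of 16 precursor markers (2 after centring by length), while Pdgfra (0.31 ± 0.10) and Cspg4 (0.33 ± 0.09) had no call. Of 25 ventral striatum markers 2 were higher, Drd3 and Peg10, and 1 lower, Calb2, with 1 higher and none lower after centring by length; none of 14 dorsolateral striatum markers was called, with a median of 0.057. Blood transcripts differed between libraries without a call: Hbb-b1 stood at 116 ± 9.62 RPKM for saline, 159 ± 11.7 RPKM for cocaine and 85.7 ± 4.37 RPKM for withdrawal, and the near-identical Hba-a1 and Hba-a2 were ordered likewise.

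Against the cocaine library alone, 66 genes were higher in withdrawal (0.470%) and 77 lower (0.548%). Genes that passed the rule against both saline and cocaine were 19 higher (0.135%) and 35 lower (0.249%); both comparisons use the withdrawal lanes. Of these 54 genes, listed after their values were seen, 26 had a mean of at least 3 RPKM in the lanes of saline and withdrawal. Among the 8 higher ones were Drd3 and Sox18, given above, and Rn4.5s, a repeat-derived small RNA that is uncertain; the others were 2900056M20Rik, Gm12523, 4930500M09Rik and the overlapping microRNA models Mir24-1 and Mir3074-1, which rest on 4.46 to 10.1 reads per library.

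Among the 18 lower ones, Ptpla, an enzyme of very long chain fatty acid synthesis, had 7.98, 10.6 and 7.69 RPKM in the saline lanes, 4.7, 8.06 and 5.54 RPKM in the cocaine lanes and 3.29, 4.16 and 2.17 RPKM in the withdrawal lanes (-1.34 ± 0.27). Rasd1, a Ras-like protein inducible by dexamethasone, was at 4.59, 4.49 and 3.67, at 3.21, 3.04 and 3.82 and at 1.57, 1.78 and 1.96 RPKM in the same order (-1.06 ± 0.12). S100a11, a calcium-binding protein, was at 6.33, 4.61 and 6.66, at 5.17, 5.32 and 7.43 and at 3.17, 2.35 and 1.88 RPKM (-1.11 ± 0.24). In S100a11 the saline and cocaine lanes overlapped and the withdrawal lanes lay below both.

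Several others, such as Fzd1, Pisd and Ntng1, had cocaine means close to those of saline. Fzd1, a Wnt receptor, had means of 5.04 ± 1.19 RPKM for saline, 4.57 ± 0.544 RPKM for cocaine and 2.7 ± 0.889 RPKM for withdrawal (-0.81 ± 0.28). Pisd, the mitochondrial enzyme that makes phosphatidylethanolamine, was at 79.8 ± 5.08, 82 ± 5.39 and 49.2 ± 4.39 RPKM (-0.69 ± 0.09), and Ntng1 at 8.25 ± 0.523, 7.34 ± 1.18 and 4.65 ± 0.566 RPKM (-0.77 ± 0.10). Gtf2a2, a subunit of the general transcription factor TFIIA (-1.08 ± 0.19), Nme5, of the nucleoside diphosphate kinase family (-1.13 ± 0.25), and Rpp30, a subunit of ribonuclease P (-1.02 ± 0.27), were lower too. Their cocaine means lay between those of saline and withdrawal. In the order saline, cocaine and withdrawal, Gtf2a2 was at 13.1, 9.38 and 6.01 RPKM, Nme5 at 10.9, 8.59 and 4.66 RPKM and Rpp30 at 5.95, 4.26 and 2.6 RPKM. Ndufaf1, a complex I assembly factor, was lower (-0.72 ± 0.20; cocaine 14.1 ± 3.17 RPKM), though not without withdrawal lane 2 (-0.54). Together with Sgk1 and Rps27l, a ribosomal protein-like gene induced by p53 (-0.86 ± 0.18), these made up most of the named genes of this set; Ufsp1 (-0.78 ± 0.11), Ccdc90b, whose call was lost without saline lane 2 or withdrawal lane 1, A230065H16Rik and the models Gm6788, 2200002D01Rik and Gm13629 completed it.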

How the data were processed

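The authors' deposited table gives RPKM per lane and 1 composite RPKM per library, with lane and library totals, per the file headers. Libraries came from poly(A) RNA primed at random, with inserts near 200 bp read for 37 cycles from both ends, per the labels' protocols. The submitters' processing notes name Bowtie 0.12.7 and mm9. How reads were counted, and on which annotation, is not given in the sources used here. All 9 lane files held the same values as the table, and composites matched depth-weighted lane means.

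Groups came from the sample titles. Lane values were transformed to log2(RPKM + 0.5), averaged per library and compared as the report states, with Python 3.11.15, numpy 2.4.6 and pandas 2.3.3; the calling step was tested on simulated data. Model lengths were the smallest that turned RPKM into multiples of 1/37 of a read, multiplied by 37 for 114 genes (16 compared). Reference length and GC content came from GENCODE M21 (98.0% of genes with GC content), promoters from RefSeq.

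Members and gene lists were chosen with earlier results of these data known. Named genes were the 12 largest calls each way at a mean of at least 3 RPKM, up to 4 called members per list (or, with none, the member furthest from 0 at that level), 14 fixed genes and the 10 most abundant; others named, such as levels of defining cell type markers, were chosen after their values were seen. Some genes that the rule names are not reported here. Alternatives were a pseudocount of 0.1 or 1, a filter of 5 RPKM or none, a size limit of 25% or 2 times, no condition on lanes, median, 75th percentile, length and GC centring, composites, models under 200 bp left out, each lane left out and, added after seeing the data, models under 0.5 times the reference length left out and at least 1 RPKM asked of both libraries.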

Additional observations from a re-analysis of the deposited data

How the results depend on the processing

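Against 557 higher and 473 lower calls, a size limit of 25% gave 1563 and 2134 and a limit of 2 times gave 146 and 44. A filter of 5 RPKM gave 266 and 325 among 9492 genes, fewer because fewer genes were compared. Lower calls numbered 309 with the median difference set to 0, 280 with 75th percentile scaling, 175 with centring by length and 297 with centring by GC content; centring by length kept 527 of the 1030 calls. Under the other settings both counts were within 1.5 times, and with each lane left out in turn they ran from 611 to 655 higher and from 565 to 639 lower; fewer lanes make non-overlap easier to reach. Of 144 called genes named by the rule, none changed direction; 92 were below a size limit of 2 times, and 55 lost the call after centring by length, 16 with 75th percentile scaling and 14 with a pseudocount of 1. Medians of the lists for actin and spine, clock, medium spiny neuron transcription factors, peptide processing and synaptic vesicle genes changed sign with the scaling. They also did so with GC centring and without at least 1 single lane. The vesicle median changed sign with composites too, and the transcription factor median after centring by length. That of glutamate transport genes did so with 75th percentile scaling. That of peptide and opioid receptors did so under a filter of 5 RPKM, with 1 RPKM asked of both libraries or without lane 1 of either library. That of interferon-responsive genes did so under the 5 RPKM filter or without saline lane 2. Those of endocannabinoid, microglia, myelin, interneuron, ventral striatum and nuclear non-coding RNA genes did so after centring by length. The endocannabinoid median also changed sign with no filter. The ventral striatum median also did so under the 5 RPKM filter, with composites and without lane 1 or 2 of either library. No paired analysis was possible because lane numbers mark technical runs of 1 library per group and the calls come from no test. Lower totals in withdrawal limit genes of few reads, and nothing here measures the spread between animals.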
